A study of Mus musculus with 24 samples.

Results

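The 53 mouse genes described here carry translation initiation factor symbols, from Eif1 to Eif6. They include regulators such as kinases and inhibitors, and for short all are called initiation factors here. They are the protein-coding genes of the GENCODE M21 annotation whose symbol is Eif followed by a digit from 1 to 6, without Eif4enif1 and Eif4e1b, and all 53 were found among the 55487 genes in the files. By role they comprised 5 genes of start codon scanning, 6 of eIF2 and its alternatives, 5 of eIF2B, 4 eIF2 alpha kinases, 14 of eIF3, 3 of the eIF4E family, 3 eIF4E-binding inhibitors, 3 eIF4G scaffolds, 5 eIF4A helicases and cofactors, and 5 of the eIF5 group with eIF6. The scanning group includes Eif1ad, which encodes a protein with an eIF1A-like domain. The study asked how loss of Nlrp14 relates to female infertility and arrest of the embryo, and sequenced RNA from wild-type (WT) and Nlrp14 knockout (KO) mice. NLRP14 is a protein of the NLR family made in oocytes. The 8 groups were WT and KO oocytes at the germinal vesicle stage (GV), WT and KO oocytes at metaphase II (MII), WT and KO zygotes at the PN5 pronuclear stage, and WT and KO embryos at the 2-cell stage. Each group held 3 libraries labelled as biological replicates, each from the total RNA of 5 oocytes or embryos. The sources used here give no strain, age, deleted part of Nlrp14 or genotype of the sires.

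Initiation factors bring the small ribosomal subunit and the initiator tRNA to the start codon of an mRNA. eIF4E binds the cap, eIF4G links it to the helicase eIF4A and to eIF3, and eIF3 sits on the small subunit, while eIF1 and eIF1A keep the complex scanning until the start codon is met. eIF2 carries the initiator tRNA and is recharged by eIF2B, and kinases that phosphorylate the alpha subunit of eIF2 slow this step. The fully grown oocyte is transcriptionally silent, so from GV to the zygote mRNA levels change mainly by decay and by changes in poly(A) tail length, and the embryo starts its own main wave of transcription at the 2-cell stage in mice.

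Values are FPKM as deposited, which divides the fragments of a gene by its transcript length in kilobases and by library depth, so levels of different genes can be compared per length. Differences between groups are log2 differences of FPKM + 1, a scale that understates the change of low genes. A gene was tested if 3 or more libraries of the comparison reached 1 FPKM, and called if its limma p stayed under 0.05 after Benjamini-Hochberg adjustment over all tested genes. Such p-values weigh the difference between group means against the spread of libraries within groups, moderated across tested genes. No other source of spread enters them. The steps of the low values implied 7654000 to 12290000 fragments in a library, and a single fragment in a transcript of 1 kb equalled 0.0814 to 0.131 FPKM. Nlrp14 averaged 1937, 391, 209.8 and 106 FPKM in WT at the 4 stages and 28.4, 19.6, 6.8 and 26.4 FPKM in KO. Oocyte markers reached a mean of 1 FPKM in 11 or 12 of 12 genes in every group, and 2-cell markers in 7 of 7 genes in both 2-cell groups. Among KO GV libraries, replicate 3 stood apart: its slope of log2 level on log2 gene length was -0.289, against -0.134 to -0.112 in the other 5 GV libraries. The kit primes on poly(A), so a shorter tail and fewer transcripts cannot be told apart, nor can fewer cells of a type and less RNA per cell.

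The 53 genes differed widely in level and in order of abundance between stages. Their summed level was 2417 ± 31.0 FPKM (SD, n = 3) in WT GV oocytes, 1665 ± 4.20 at MII, 1692 ± 133.7 at PN5 and 1884 ± 227 in 2-cell embryos. In KO the sums were 2466 ± 91.9, 1724 ± 33.6, 1715 ± 39.8 and 1445 ± 74.0 FPKM. The order of these sums depended on the scaling. From PN5 to the 2-cell stage in WT the mean sum went from 1771 to 1578 with median-of-ratios scaling and from 4532 to 3950 as TPM, against the higher 2-cell mean in FPKM. In 2-cell embryos the KO libraries lay below all WT libraries in FPKM, and with median-of-ratios scaling they overlapped, at 1450 to 1728 in WT and 1333 to 1465 in KO. At GV the highest member was Eif1b, a close copy of the scanning factor Eif1, with 23.9% of the WT sum. At MII and PN5 it was Eif2b1, the alpha subunit of eIF2B, with 29.5% and 28.3% of the WT sum. In 2-cell embryos of both genotypes Eif1 and Eif5a led, and Eif1 held 8.59% of the sum in WT and 14.3% in KO. The median member stood at 14.3 FPKM in WT GV oocytes, 5.10 at MII, 5.40 at PN5 and 21.2 in 2-cell embryos, and in KO 2-cell embryos at 5.601 FPKM. Of the 53 genes, 34 averaged at least 10 FPKM in WT 2-cell embryos and 19 did in KO.

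**Figure D1:**
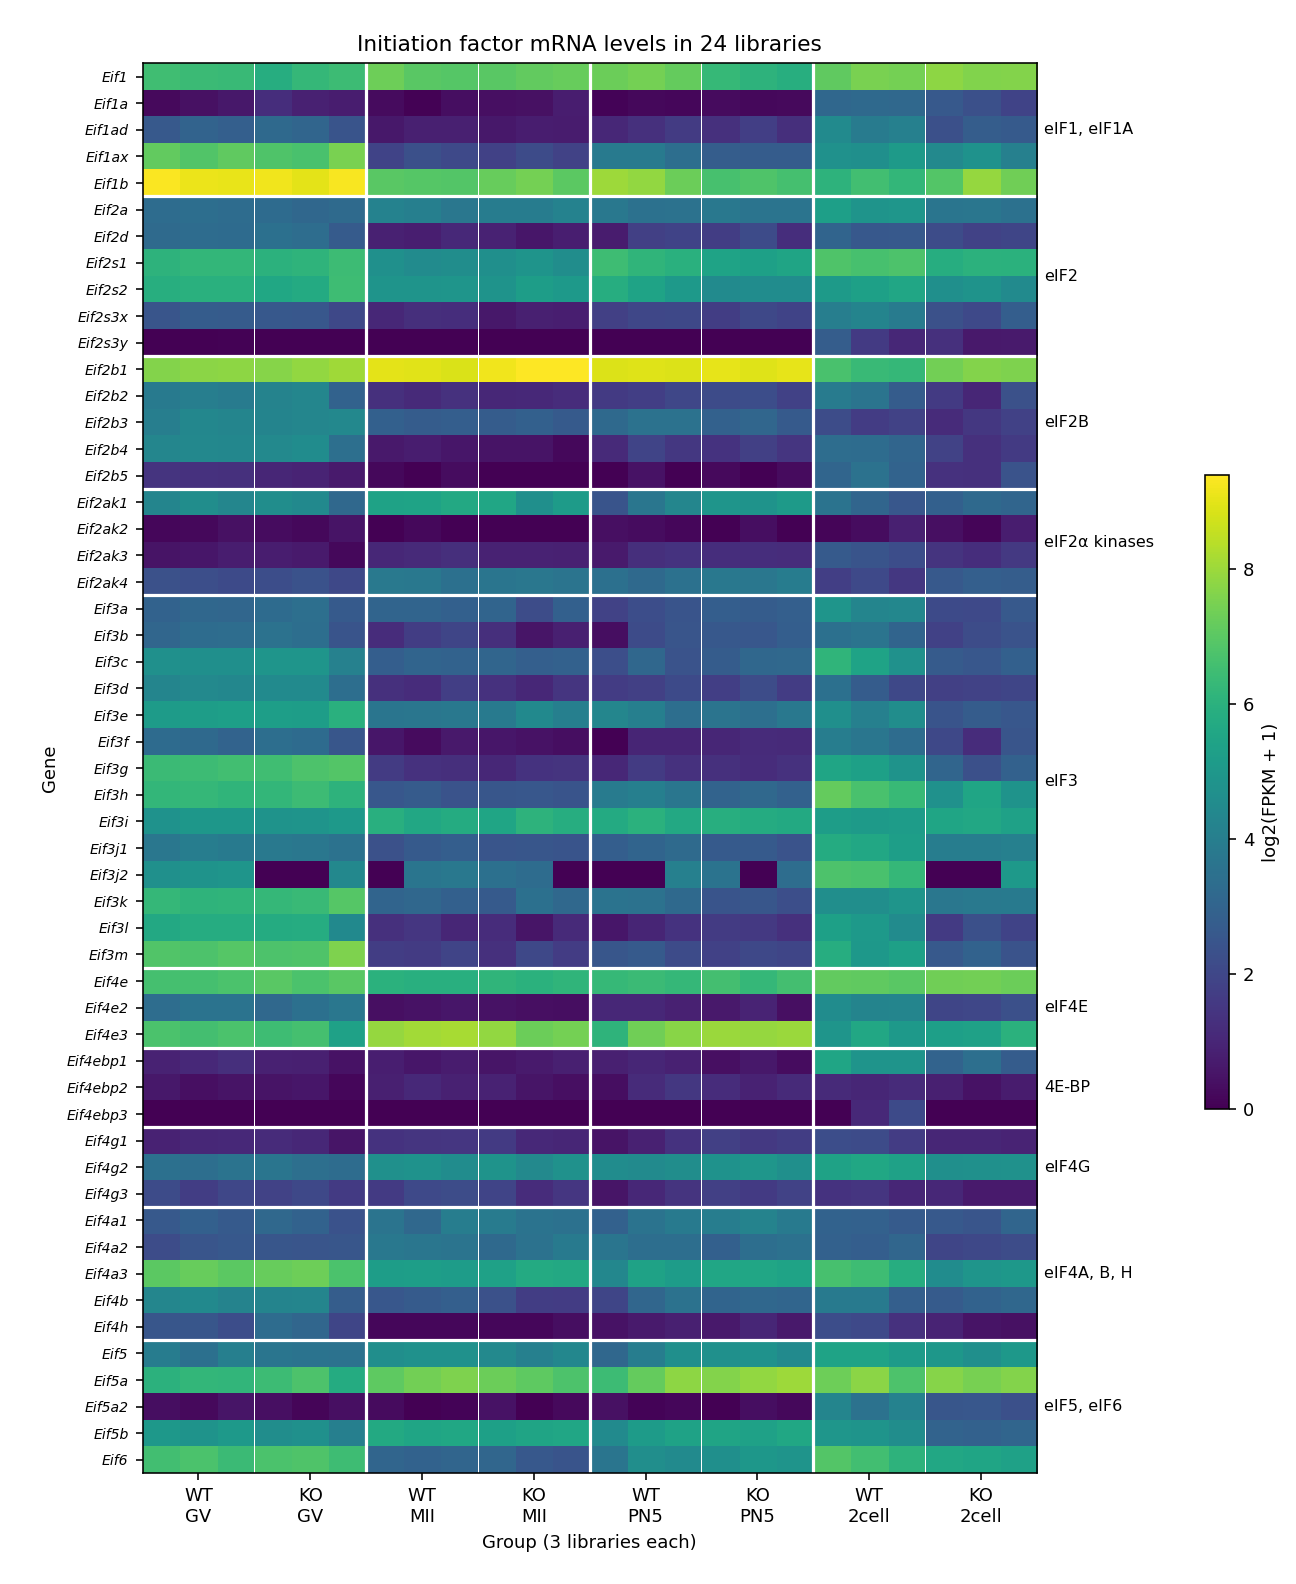
Level of the 53 initiation factor genes in each of the 24 libraries, as log2(FPKM + 1) on a colour scale, with genes in rows grouped by role and libraries in columns grouped by stage and genotype. Most eIF3 rows are bright at GV, dark at MII and PN5, bright again in WT 2-cell embryos and dark in KO 2-cell embryos, while Eif2b1 and Eif3i follow another course.

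In WT, the passage from GV to MII changed 44 of 46 tested members, 29 downward and 15 upward. Of all tested genes 84% were called, 52.8% lower and 31.1% higher. The median log2 difference was -1.48 over the members and -0.50 over all genes. The 29 that fell held 12 of the 14 eIF3 genes, 4 of the 5 eIF2B genes and the 3 core subunit genes of eIF2 tested. The 15 that rose held Eif2b1, Eif3i, Eif1, Eif5, Eif5a, Eif5b, Eif4a1, Eif4a2, Eif4e3, Eif4g1, Eif4g2, Eif2a and the kinases Eif2ak1, Eif2ak3 and Eif2ak4. Eif3a and Eif4g3 were not called. The call for Eif3j2 (adjusted p = 0.0479) ended under most alternatives, with adjusted p up to 0.196, and that for Eif4g1 with all 24 libraries in 1 fit (adjusted p = 0.095).

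From MII to PN5 in WT, 7 of 43 tested members were called, against 14.2% of all genes (9.8% higher and 4.44% lower), and 6 of them rose. These were Eif2s1, Eif1ax, Eif3h, Eif6, Eif2s3x and Eif2b4. Eif2ak1, the heme-regulated eIF2 alpha kinase, fell. The count ranged from 3 to 15 when single libraries were left out. The highest value, 15 of 38 members, came without WT PN5 replicate 3, where 30% of all genes were called, and 3 members were called without any 1 of the 3 WT MII libraries or WT PN5 replicate 2. The calls for Eif6, Eif2s3x, Eif2b4 and Eif2ak1 ended under some of the alternatives, with adjusted p up to 0.179, 0.198, 0.173 and 0.0898.

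From PN5 to the 2-cell stage in WT, 38 of 51 tested members were called, 32 higher and 6 lower, against 62.8% of all genes, 48% higher and 14.8% lower. The median log2 difference was 1.30 over the members and 0.70 over all genes. The 32 that rose held 11 of 14 eIF3 genes. The 6 that fell were Eif2b1, Eif4e3, Eif2ak4, Eif2b3, Eif1b and Eif3i. With a trend on gene length removed within each library, the split was 25 higher and 10 lower, with a median of 0.71 over the members and -0.01 over all genes.

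The genotypes were first compared in oocytes. At GV, 0 of 45 tested members were called between KO and WT with limma, against 0.043% of all genes, and 3 had an unadjusted p under 0.05, against 11.8% of all genes (Eif2b5, Eif3j2 and Eif5b, each lower in KO). Without KO GV replicate 3, whose length slope stood apart, Eif3j2 (adjusted p = 1.78e-05) and the eIF4A cofactor Eif4h (log2 difference 0.80, adjusted p = 0.0281) passed, where 8.97% of all genes did. At MII, 0 of 39 tested members were called, against 2.28% of all genes, and 8 had an unadjusted p under 0.05, against 29.1% of all genes. Without KO MII replicate 1, 9 of 39 members passed, against 36.2% of all genes: Eif2b1, Eif3e and Eif4a3 on the higher side, and Eif2ak1, Eif3b, Eif4b, Eif4e3, Eif5 and Eif6 on the lower side. The length slope was 0.168 to 0.191 in the WT MII libraries, 0.176 in KO replicate 1, and 0.017 and 0.093 in the other 2 KO libraries. No member was called at GV or MII under any other setting tried.

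At PN5, 4 of 44 tested members were lower in KO and 0 higher, against 6.1% of all genes called, 5.53% lower and 0.569% higher. They were the scanning factors Eif1, Eif1b and Eif1ax and the eIF3 subunit gene Eif3k. The median log2 difference was 0.14 over the members and 0.01 over all genes. All 4 missed the threshold with no filter on low values, with median-of-ratios scaling, as TPM, with the length trend removed, and without any 1 of the 3 KO libraries or WT replicate 2, with adjusted p up to 0.198. Without WT PN5 replicate 3, 15 of 43 members passed, against 32.9% of all genes. The WT PN5 libraries also differed in length slope, from -0.082 to 0.139, while the KO libraries lay between 0.189 and 0.228.

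At the 2-cell stage, 36 of 51 tested members were called, 33 lower and 3 higher in KO. Of all tested genes 54.3% were called, 40.3% lower and 14% higher. The median log2 difference was -0.99 over the members and -0.44 over all genes. Each value below is read against this shift of all genes. All KO libraries lay below all WT libraries for 36 members, against 44.6% of all genes, and above them for 6, against 17.5%. The 33 called lower stood at 9.099% to 60.97% of the WT mean. The 3 called higher were Eif2b1, Eif1b and Eif2ak4, at 216% to 230.3% of the WT mean. By role, the 33 held 12 of 14 eIF3 genes, 5 of 6 of the eIF2 group and 3 of 5 of eIF2B. They also held 2 of 5 genes of the scanning group (Eif1a and Eif1ad), 1 of 3 tested kinases, 1 of 3 eIF4E genes and 1 of 2 tested inhibitors. The rest were 2 of 3 eIF4G scaffolds, 3 of 5 helicases and cofactors, and 3 of 5 of the eIF5 group.

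The count at the 2-cell stage was 30 to 38 under the other settings and its split moved with scaling. With median-of-ratios scaling 6 members were higher and 31 lower, with a median of -0.82 over the members and -0.28 over all genes. With the length trend removed 8 were higher and 23 lower, with a median of -0.49 over the members and 0.00 over all genes, and 26 of the 36 genes were among those called. The 10 whose call ended were Eif1a, Eif2s1, Eif2s2, Eif2d, Eif2ak3, Eif3k, Eif4g1, Eif4g2, Eif4a2 and Eif6. Eif2s2 and Eif2d were not called with median-of-ratios scaling either. Genes that reached 1 FPKM numbered 14128 to 14561 in the WT 2-cell libraries and 11736 to 12037 in KO. Marker genes moved with the genotype as well. The 12 oocyte markers summed to 5218 to 6692 FPKM in WT and 15570 to 21810 in KO, with 7 of 12 called higher and 1 lower in KO and a median log2 difference of 0.84. The 7 markers of the 2-cell stage summed to 939 to 1305 against 1519 to 2292 FPKM, with 2 of 7 called higher and 0 lower. Markers of other cell types moved too. The 14 granulosa and cumulus markers summed to 34.9 to 49.4 FPKM in WT and 10.8 to 13.5 in KO, most of it from Tnfaip6 and Nr5a2, with 4 of 14 averaging 1 FPKM or more in each group and Amh, Fshr, Inha, Inhba and Ptx3 at 0 in both groups. The 8 blood, stroma and oviduct markers summed to 99.8 to 183 against 26.5 to 38.6 FPKM, most of it from Epcam and Hba-a1, with 3 of 8 averaging 1 FPKM or more in each group and Hbb-bs at 0 in both groups. The 8 sperm markers summed to 2.35 to 3.63 against 4.26 to 6.78 FPKM, with 1 of 8 in WT and 2 of 8 in KO averaging 1 FPKM or more and Tnp2 at 0 in both groups. The part of these genes in the result was not tested.

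**Figure D2:**
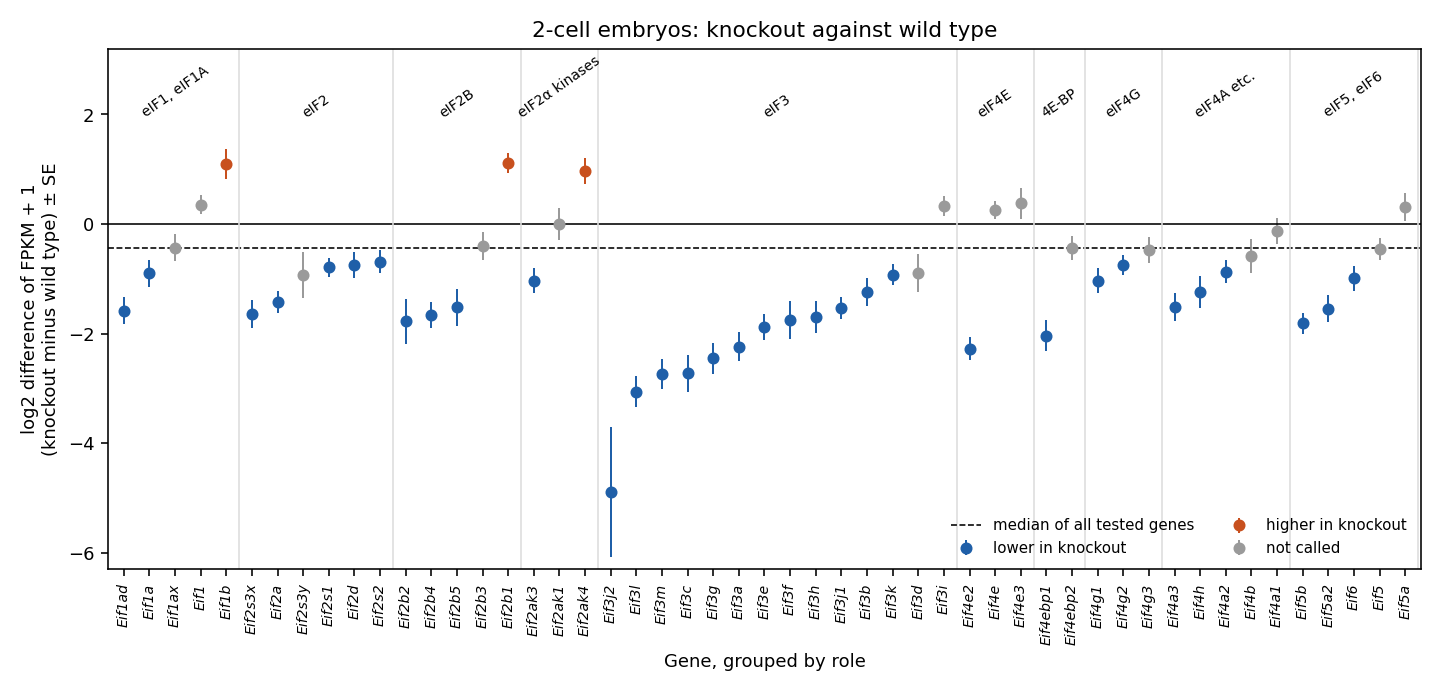
Difference between KO and WT 2-cell embryos for the 51 tested members, as log2 of FPKM + 1 with its standard error, grouped by role and ordered by size within a role. Of these, 33 were called lower, 3 were called higher (Eif1b, Eif2b1 and Eif2ak4) and 15 were not called. The dashed line is the median of all tested genes, at -0.44.

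The scanning factors are a set of close paralogues. eIF1 keeps the ribosome in its open, scanning state and is released at the start codon, and Eif1 (ENSMUSG00000035530, chr11:100319885-100322096, + strand) and Eif1b (ENSMUSG00000006941, chr9:120492232-120495330, + strand) encode it and a near copy (coordinates are GRCm38, from GENCODE M21). Their coding sequences differ at 64 of 339 positions, with no run of identical bases over 25, so that reads from one can be told from the other. The first 120 bases of each coding sequence show how the 2 genes are distinguished, with the 19 differing bases in capitals.
Eif1: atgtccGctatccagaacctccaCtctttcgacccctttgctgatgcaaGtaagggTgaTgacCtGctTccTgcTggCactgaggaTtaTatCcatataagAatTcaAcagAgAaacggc
Eif1b: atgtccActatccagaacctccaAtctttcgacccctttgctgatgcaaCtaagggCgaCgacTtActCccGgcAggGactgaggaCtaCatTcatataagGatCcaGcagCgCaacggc

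Eif1b was the most abundant initiation factor mRNA of the GV oocyte. It stood at 645, 553 and 534 FPKM in the 3 WT libraries and fell to 127, 118 and 116 FPKM at MII (log2 difference -2.25, SE 0.09, adjusted p = 1.59e-07). At PN5 the WT values were 256, 234 and 154 FPKM and the KO values 98.8, 110.4 and 98.7 FPKM. All KO zygote libraries lay below all WT zygote libraries (log2 difference -1.02, SE 0.23, adjusted p = 0.0462). In 2-cell embryos the order was the other way, with 66.1, 92.9 and 73.3 FPKM in WT and 118, 236 and 162 FPKM in KO. All KO 2-cell libraries lay above all WT 2-cell libraries (log2 difference 1.10, SE 0.27, adjusted p = 0.00927). Between PN5 and the 2-cell stage Eif1b thus fell in WT (log2 difference -1.44, adjusted p = 0.0015), and the change differed between genotypes by 2.12 (interaction, adjusted p = 0.000849). An expressed antisense gene, D830035M03Rik, overlaps Eif1b, and reads on opposite strands cannot be told apart without stranded counting.

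Eif1 was lower in KO zygotes as well, and was not called in 2-cell embryos. It rose in WT from 89.5, 84.02 and 82.2 FPKM at GV to 158, 127 and 119.7 FPKM at MII (log2 difference 0.65, adjusted p = 0.000675). In zygotes the values were 153, 172 and 142 FPKM in WT and 77.96, 65.4 and 57.8 FPKM in KO. The 2 groups did not overlap, and Eif1 was the member with the smallest adjusted p at that stage (log2 difference -1.21, SE 0.20, adjusted p = 0.0354). In 2-cell embryos the values were 138, 178 and 170.1 FPKM in WT and 223, 194 and 201 FPKM in KO. These groups did not overlap either, but the difference was not called (log2 difference 0.35, adjusted p = 0.127). It was called higher with median-of-ratios scaling (0.56, adjusted p = 0.0334) and with the length trend removed (0.79, adjusted p = 0.008), within a range of 0.008 to 0.33 over all settings. A processed pseudogene, Eif1-ps1, is 97.6% identical to Eif1 over 330 bases and was listed at 65.3 FPKM on average. Another, Eif1-ps2, is 97.35% identical over 339 bases and was listed at 28.9 FPKM on average. The split of reads between Eif1 and these copies is therefore uncertain. The sum of Eif1 and Eif1-ps1 was 225, 245 and 195 FPKM in WT zygotes and 111, 104 and 88.8 FPKM in KO zygotes. Eif1-ps2 was not included in this sum.

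eIF1A works beside eIF1 in scanning, and its 2 genes had different courses. Eif1ax, on the X chromosome, fell from 141, 113 and 137 FPKM in WT GV oocytes to 2.75, 3.92 and 3.25 FPKM at MII (log2 difference -4.93, adjusted p = 3.23e-08). It then rose to 13.6, 13.7 and 9.56 FPKM in WT zygotes (log2 difference 1.62, adjusted p = 0.00492). KO zygotes held 5.904, 5.63 and 5.73 FPKM, all below WT (log2 difference -0.96, SE 0.23, adjusted p = 0.0485). In 2-cell embryos Eif1ax stood at 26.1, 24.6 and 33.9 FPKM in WT and 20.2, 26.4 and 15.99 FPKM in KO, and the groups overlapped (log2 difference -0.43, adjusted p = 0.164).

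Eif1a was low before the 2-cell stage, with WT means of 0.345, 0.167 and 0.111 FPKM. In WT 2-cell embryos it rose to 7.78, 8.19 and 7.99 FPKM (log2 difference 3.02, adjusted p = 7.92e-06). KO 2-cell embryos held 5.13, 3.87 and 2.73 FPKM, all below WT (log2 difference -0.90, SE 0.24, adjusted p = 0.0135). Without KO replicate 3 its adjusted p was 0.0532, and over all settings the range was 0.000121 to 0.295. Eif1a and Eif1ax share 85.7% of 432 aligned coding bases. Eif1ad, which encodes a protein with an eIF1A-like domain, averaged 17.1 FPKM in WT and 5.03 FPKM in KO 2-cell embryos (log2 difference -1.58, adjusted p = 0.00115). It overlaps Banf1 on the other strand.

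**Figure D3:**
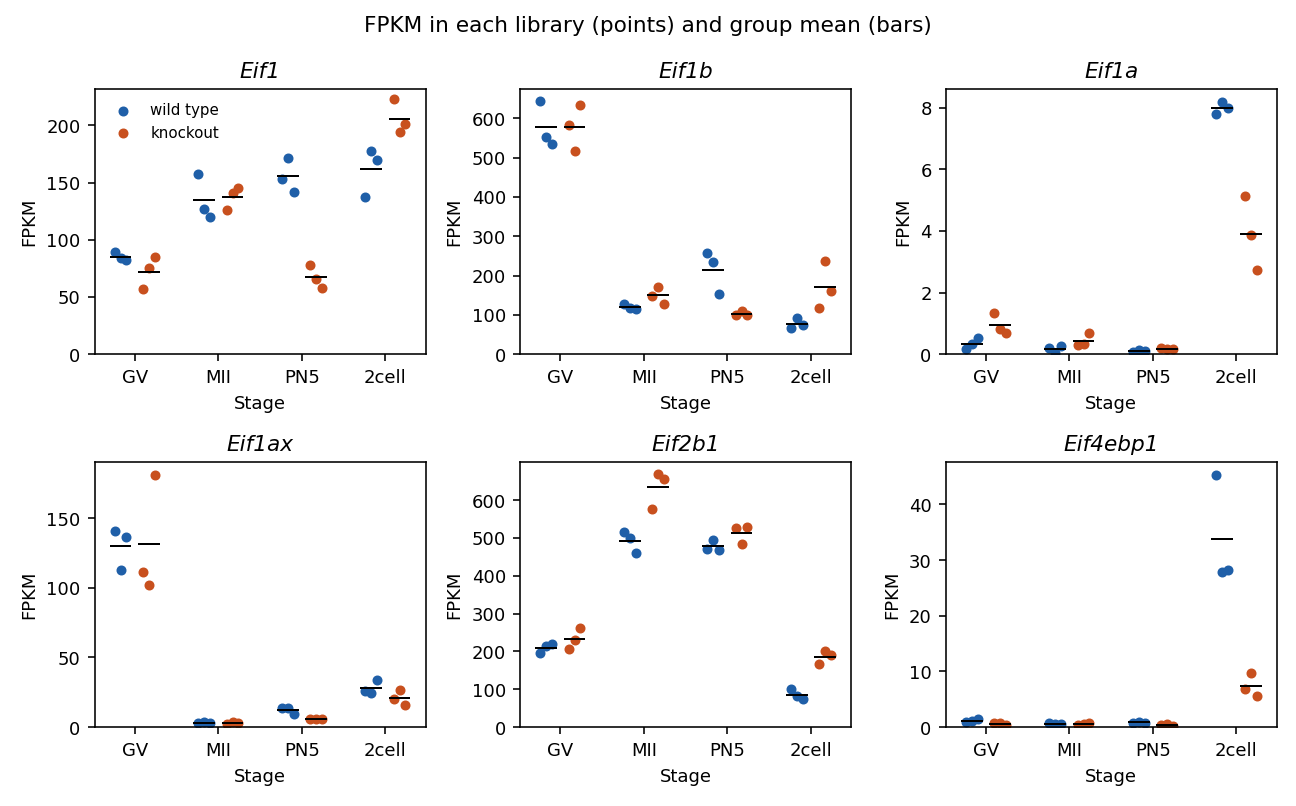
FPKM of Eif1, Eif1b, Eif1a, Eif1ax, Eif2b1 and Eif4ebp1 in each library (points) with the group mean (bars), by stage, WT in blue and KO in orange. At PN5 the KO points of Eif1, Eif1b and Eif1ax lie below all WT points. In 2-cell embryos the KO points of Eif1b and Eif2b1 lie above all WT points and those of Eif1a and Eif4ebp1 below them.

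eIF2 is a complex of 3 subunits that brings the initiator tRNA. Eif2s1 encodes its alpha subunit, the target of the kinases, Eif2s2 its beta subunit, and Eif2s3x and Eif2s3y its gamma subunit from the X and Y chromosomes. Eif2s1 rose in WT from 25.4, 22.2 and 23.4 FPKM at MII to 87.2, 69.01 and 61.8 FPKM at PN5 (log2 difference 1.57, adjusted p = 0.003). The KO values were 24.4, 28.3 and 23.3 and then 42.2, 39.1 and 43.5 FPKM, and this change differed from that of WT (interaction -0.87, adjusted p = 0.0495). At the 2-cell stage Eif2s1 stood at 109.7, 100.5 and 109 FPKM in WT and was lower in KO, at 56.8, 63.9 and 62.4 FPKM (log2 difference -0.79, adjusted p = 0.00445, and adjusted p = 0.263 with the length trend removed).

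Eif2s2 went from 27.9, 27.9 and 28.6 to 56.1, 42.1 and 32.9 FPKM between MII and PN5 in WT, and from 27.6, 36.1 and 32.6 to 21.7, 22.6 and 22.4 FPKM in KO. The 2 changes differed (interaction -1.08, adjusted p = 0.0456). In 2-cell embryos it averaged 40 FPKM in WT and 24.4 FPKM in KO (log2 difference -0.69, adjusted p = 0.0202). That call ended without any 1 of 3 libraries, with an adjusted p of 0.0763 without KO replicate 3, 0.0537 without WT replicate 2 and 0.0554 without WT replicate 3.

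Eif2s3x fell at maturation and rose at both later steps in WT, with 4.52, 5.58 and 5.47 FPKM at GV, 1.09, 1.42 and 1.33 at MII, 2.46, 3.04 and 3.09 at PN5 and 15.3, 18.1 and 13.9 in 2-cell embryos. The KO 2-cell libraries held 4.09, 3.21 and 6.07 FPKM, all below WT (log2 difference -1.65, SE 0.25, adjusted p = 0.00116). Eif2s3y was listed at 0 in 17 of the 18 libraries before the 2-cell stage and at 5.84, 2.01 and 1.09 FPKM in WT and 1.45, 0.565 and 0.619 FPKM in KO 2-cell embryos. The groups overlapped and the difference was not called (log2 difference -0.93, adjusted p = 0.0948), and the share of male embryos in each pool was not given. Eif2a and Eif2d, which encode other factors able to deliver the initiator tRNA, were both lower in KO 2-cell embryos. Eif2a overlaps Serp1, and Eif2d overlaps Rassf5, each on the other strand. Eif2a averaged 32.2 against 11.3 FPKM (log2 difference -1.42, adjusted p = 0.000886). Eif2d averaged 5.803 against 3.04 FPKM (log2 difference -0.75, adjusted p = 0.0244), and its adjusted p was 0.0777 without KO replicate 2, 0.0676 without KO replicate 3 and 0.0928 without WT replicate 1.

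eIF2B recharges eIF2 with GTP and is built from 5 subunits, whose mRNAs did not move together. Eif2b1 (ENSMUSG00000029388, chr5:124570213-124579131, - strand), the regulatory alpha subunit that senses phosphorylated eIF2, rose in WT from 197, 214 and 219.9 FPKM at GV to 515, 499 and 460.2 FPKM at MII (log2 difference 1.22, adjusted p = 1.47e-06). It fell from 471, 494 and 469 FPKM at PN5 to 101, 82.2 and 75.03 FPKM in 2-cell embryos (log2 difference -2.47, adjusted p = 2.13e-05). KO zygotes held 525, 485 and 528 FPKM and overlapped with WT, while KO 2-cell embryos held 168, 201 and 189.7 FPKM, all above WT (log2 difference 1.11, SE 0.19, adjusted p = 0.00171). The change from PN5 to 2-cell differed between genotypes (interaction 1.01, adjusted p = 0.00319), a call that ended as TPM (0.72, adjusted p = 0.0551).

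Eif2b2, Eif2b4 and Eif2b5 took the opposite course. Eif2b4, of the regulatory part, fell from 19.01, 19.7 and 19.3 FPKM in WT GV oocytes to 0.546, 0.691 and 0.48 FPKM at MII (log2 difference -3.69, adjusted p = 3.06e-08) and was at 1.15, 2.81 and 1.88 FPKM at PN5. It reached 9.24, 9.06 and 7.31 FPKM in WT 2-cell embryos and 2.59, 1.47 and 2.05 FPKM in KO, with no overlap (log2 difference -1.66, adjusted p = 0.000829). Eif2b2 and Eif2b5, the latter the catalytic subunit gene, averaged 10.4 and 8.34 FPKM in WT and 2.37 and 2.42 FPKM in KO 2-cell embryos. Both were called lower in KO. Eif2b3 fell in WT from 8.31, 10.7 and 10.6 FPKM at PN5 to 3.56, 2.22 and 2.59 FPKM (log2 difference -1.52, adjusted p = 0.000814), and KO embryos at 1.25, 1.87 and 2.51 FPKM overlapped with WT. Eif2b4 overlaps Snx17 on the other strand.

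The kinases of eIF2 alpha respond to different stresses. Eif2ak4, the sensor of uncharged tRNA, rose from 4.05, 3.79 and 3.36 FPKM in WT GV oocytes to 12.8, 12.5 and 10.1 FPKM at MII (log2 difference 1.43, adjusted p = 1.22e-05) and fell from 10.2, 8.33 and 10.3 FPKM at PN5 to 2.32, 3.24 and 1.89 FPKM in 2-cell embryos (log2 difference -1.62, adjusted p = 0.000581). In KO 2-cell embryos the values were 5.21, 6.17 and 5.77 FPKM, all above WT (log2 difference 0.96, SE 0.23, adjusted p = 0.00826). Eif2ak1 fell in WT from 41.7, 42.9 and 49.7 FPKM at MII to 4.46, 11.8 and 18.9 FPKM at PN5, a fall with a wide spread (log2 difference -2.03, SE 0.43, adjusted p = 0.0212), and KO zygotes held 28.4, 27.2 and 33.6 FPKM. The KO zygote libraries lay above all WT zygote libraries for Eif2ak1, and the difference was not called (log2 difference 1.46, adjusted p = 0.0761). Eif2ak3, the kinase of the endoplasmic reticulum, averaged 4.47 FPKM in WT and 1.66 FPKM in KO 2-cell embryos. It was called lower in KO (log2 difference -1.03, adjusted p = 0.00565, and adjusted p = 0.0631 with the length trend removed). Eif2ak2, activated by double-stranded RNA, averaged at most 0.363 FPKM in every group and was not tested. Eif2ak1 overlaps Aimp2 on the other strand.

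eIF3 is the largest initiation factor and holds the 43S complex together on the small subunit. Of its 14 genes, 12 were lower in KO than in WT 2-cell embryos. In WT their summed level was 574 ± 10.2 FPKM (SD, n = 3) at GV, 114 ± 5.13 at MII, 128 ± 10.1 at PN5 and 539.8 ± 117 in 2-cell embryos. In KO 2-cell embryos the 3 sums were 134, 158 and 172 FPKM, against 665, 519 and 435 FPKM in WT. All sums here include Eif3j2, listed at 109, 102 and 76 FPKM in WT and 0, 0 and 33 FPKM in KO 2-cell embryos. Sums without Eif3j2 were not computed. The WT zygote sums were 118, 138 and 128 FPKM. The KO 2-cell sum of 134 FPKM lay within their range and the other KO 2-cell sums lay above it. KO zygotes held 122.4, 110.6 and 117.5 FPKM, all below the KO 2-cell sums. The median log2 difference between KO and WT 2-cell embryos was -1.82 over all 14 genes.

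Eif3l (ENSMUSG00000033047, chr15:79075179-79094405, + strand) encodes a subunit of the outer part of the complex. It stood at 50.3, 55.9 and 54.9 FPKM in WT GV oocytes, 1.44, 1.77 and 1.03 at MII, 0.482, 0.958 and 1.601 at PN5 and 39.8, 32.9 and 21.8 in 2-cell embryos. KO 2-cell embryos held 2.03, 3.89 and 2.68 FPKM, 9.099% of the WT mean and all below WT (log2 difference -3.06, SE 0.29, adjusted p = 0.000272).

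Eif3m (ENSMUSG00000027170, chr2:104999656-105017080, - strand), a PCI domain subunit, was the most abundant eIF3 mRNA of the GV oocyte. It fell from 114, 109 and 118 FPKM at GV to 2.26, 2.08 and 2.76 FPKM at MII in WT (log2 difference -5.09, adjusted p = 1.09e-08), and stood at 4.67, 5.31 and 3.45 at PN5 and 56.6, 31.3 and 39.9 FPKM in 2-cell embryos. The KO 2-cell libraries held 5.13, 6.82 and 4.31 FPKM, with no overlap (log2 difference -2.74, SE 0.27, adjusted p = 0.000288). Eif3m overlaps Ccdc73 on the other strand.

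Eif3g (ENSMUSG00000070319, chr9:20894349-20898623, - strand), an RNA-binding subunit near the mRNA channel, fell from 84.1, 86.3 and 93.7 FPKM at GV to 2.13, 1.53 and 1.41 FPKM at MII in WT. It rose from 1.09, 2.08 and 1.51 FPKM at PN5 to 44.9, 39.02 and 27.3 FPKM in WT 2-cell embryos (log2 difference 3.88, adjusted p = 1.08e-05). In KO 2-cell embryos the values were 7.38, 3.96 and 6.62 FPKM (log2 difference -2.45, SE 0.28, adjusted p = 0.000415). The WT and KO libraries did not overlap.

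Eif3c (ENSMUSG00000030738, chr7:126546455-126566411, - strand) and Eif3a (ENSMUSG00000024991, chr19:60761117-60790658, - strand) encode the core scaffold subunits. Eif3c stood at 3.75, 7.83 and 4.33 FPKM in WT zygotes and rose to 69.8, 42.4 and 25.6 FPKM in WT 2-cell embryos, and KO 2-cell embryos held 5.54, 4.82 and 6.44 FPKM (log2 difference -2.73, SE 0.34, adjusted p = 0.00055). Eif3a stood at 2.65, 3.71 and 4.49 FPKM in WT zygotes and 29.1, 18.2 and 19.5 FPKM in WT 2-cell embryos, and KO 2-cell embryos held 3.35, 3.18 and 5.198 FPKM (log2 difference -2.24, SE 0.27, adjusted p = 0.00046). Neither gene overlapped between genotypes. Both rose in WT between PN5 and 2-cell, while in KO both means were lower at 2-cell than at PN5. The KO mean went from 7.134 to 5.601 FPKM for Eif3c, with overlapping libraries, and from 5.963 to 3.91 FPKM for Eif3a. The KO step was not tested on its own. The change differed between genotypes in both genes (interaction -3.13 for Eif3c and -2.85 for Eif3a, adjusted p = 0.000409 and 0.00013).

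Eif3h and Eif3k were also followed at PN5. Eif3h, an MPN domain subunit, fell from 73.8, 75.2 and 69.3 FPKM at GV to 4.88, 5.501 and 4.25 FPKM at MII in WT and rose to 13.96, 15.6 and 11.98 FPKM at PN5 (log2 difference 1.33, adjusted p = 0.00644). KO zygotes held 6.98, 8.06 and 6.47 FPKM, all below WT and not called (log2 difference -0.86, adjusted p = 0.0563). In 2-cell embryos Eif3h averaged 108 FPKM in WT and 32.7 FPKM in KO and was called lower in KO. Eif3k, a small peripheral subunit, stood at 10.9, 10.5 and 8.28 FPKM in WT zygotes and 4.46, 4.71 and 3.73 FPKM in KO zygotes. The groups did not overlap, and Eif3k was lower in KO (log2 difference -1.04, SE 0.22, adjusted p = 0.0411). Its change from MII, at 7.13, 7.81 and 6.41 FPKM in WT and 5.36, 10.1 and 7.99 FPKM in KO, differed between genotypes (interaction -1.12, adjusted p = 0.0495). In 2-cell embryos Eif3k averaged 25.5 FPKM in WT and 12.9 FPKM in KO (log2 difference -0.93, adjusted p = 0.00397, and adjusted p = 0.116 with the length trend removed).

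Eif3i, a WD-repeat subunit, went against most of the complex. It stood at 26.8, 30.5 and 30.3 FPKM in WT GV oocytes and rose to 59.3, 48.8 and 53.2 FPKM at MII (log2 difference 0.86, adjusted p = 6.66e-05), where it made up 47.1% of the summed eIF3 mRNA, against 5.08% at GV. At PN5 the WT values were 52.5, 62.4 and 49.4 FPKM, and in 2-cell embryos Eif3i fell to 36.7, 33.8 and 35.4 FPKM (log2 difference -0.61, adjusted p = 0.0328). That fall was not called without any 1 of the 3 WT 2-cell libraries or WT PN5 replicate 2 (adjusted p = 0.0908, 0.14, 0.104 and 0.147). KO 2-cell embryos held 44.8, 49.1 and 39.99 FPKM, all above WT and not called (log2 difference 0.32, adjusted p = 0.16), although it was called higher with median-of-ratios scaling and with the length trend removed. The ratio of Eif3i to the median of the other 13 subunit genes was 0.923 to 1.38 in the WT 2-cell libraries and 7.69 to 12.4 in the KO 2-cell libraries. In WT zygotes it was 11.01 to 19.8. By this ratio the KO 2-cell libraries lay above the WT 2-cell range. The highest, at 12.4, lay within the range of the WT zygotes, and the others lay below it. In KO zygotes the ratio was 11.3 to 11.85.

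**Figure D4:**
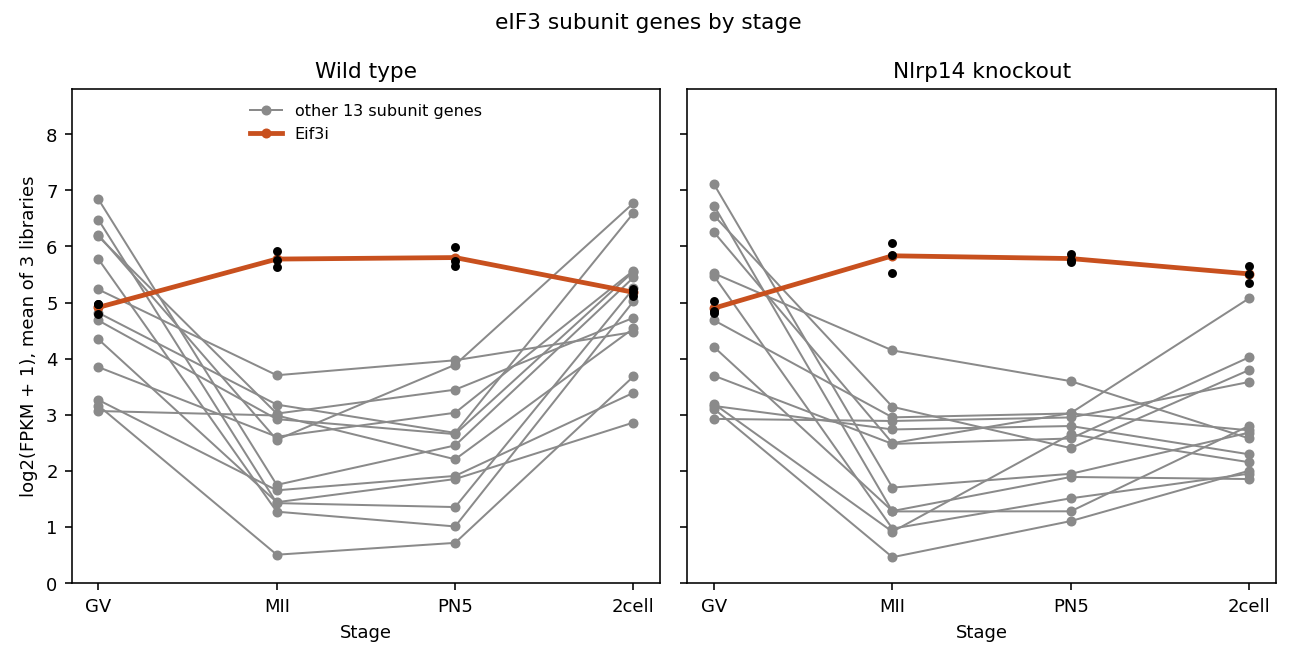
Mean level of the 14 eIF3 subunit genes by stage in WT (left) and KO (right), as log2(FPKM + 1), with Eif3i in orange and its 3 libraries as black points. In WT 2-cell embryos Eif3i lies amid the other 13 genes, and in KO 2-cell embryos it lies above all of them.

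The other eIF3 genes called lower in KO 2-cell embryos were Eif3b, Eif3e, Eif3f and the loosely bound subunit genes Eif3j1 and Eif3j2. Eif3b averaged 9.503 FPKM in WT and 3.45 FPKM in KO, Eif3e 21.2 and 4.97 FPKM, and Eif3f 11.8 and 3.01 FPKM. Eif3d, the subunit that can bind the cap itself, averaged 6.27 FPKM in WT and 2.62 FPKM in KO and was not called (log2 difference -0.89, adjusted p = 0.0583), but it passed without WT replicate 3 (adjusted p = 0.00914). A pseudogene of Eif3e, Eif3s6-ps2, is 97.3% identical to it over 1318 bases and averaged 7.01 FPKM in WT 2-cell embryos.

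Eif3j1 and Eif3j2 cannot be told apart by the aligned coding sequence. Their coding sequences are identical at all 783 aligned positions, and the rest of the 2 transcripts was not compared. Eif3j2 was listed at 0 in 9 of 24 libraries while Eif3j1 was listed in every library. Eif3j1 stood at 53.7, 47.96 and 37.9 FPKM in WT 2-cell embryos and 14.8, 14.98 and 16.1 FPKM in KO, with no overlap (log2 difference -1.53, SE 0.20, adjusted p = 0.000643). Eif3j2 was listed at 109, 102 and 76 FPKM in WT and at 0, 0 and 33 FPKM in KO, so its log2 difference of -4.88 (SE 1.18, adjusted p = 0.00838) rests on 2 libraries listed at 0. At GV it was listed at 25.5, 27.6 and 28.5 FPKM in WT and 0, 0 and 19.8 in KO, at MII at 0, 11.5 and 12.7 and 10.2, 9.08 and 0, and at PN5 at 0, 0 and 16.2 and 10.9, 0 and 9.31 FPKM. The sum of both genes was 163, 150 and 114 FPKM in WT and 14.8, 14.98 and 49.05 FPKM in KO 2-cell embryos, and these groups did not overlap. Leaving out Eif3j2 and Eif4a1, which has a near-identical pseudogene, 32 of 49 tested members were lower in KO 2-cell embryos and 3 higher.

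The 3 eIF4E family genes of the set had different courses. Eif4e1b was left out by the rule that chose the members. Eif4e encodes the main cap-binding protein and stood at 98.4, 98.2 and 104 FPKM in WT GV oocytes, 62.8, 58.97 and 59.6 at MII, 76.7, 82.8 and 76.2 at PN5 and 141, 137 and 127 in 2-cell embryos. The KO 2-cell libraries held 162, 167 and 153 FPKM, all above WT and not called (log2 difference 0.25, adjusted p = 0.221). Eif4e2 encodes a homologue known for repressing translation. It stood at 9.32, 10.8 and 10.8 FPKM in WT GV oocytes, 0.308, 0.358 and 0.493 at MII, 1.05, 1.06 and 0.829 at PN5 and 22.9, 17.99 and 18.4 in 2-cell embryos. In KO 2-cell embryos the values were 2.94, 3.04 and 3.91 FPKM, 16.7% of the WT mean and all below WT (log2 difference -2.27, SE 0.22, adjusted p = 0.000272).

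Eif4e3, the third family member, rose in WT from 105, 93.9 and 104 FPKM at GV to 239.7, 274 and 283 FPKM at MII (log2 difference 1.38, adjusted p = 1.89e-06) and fell from 68.8, 162 and 210.3 FPKM at PN5 to 28.7, 48.6 and 31.6 FPKM in 2-cell embryos (log2 difference -1.88, adjusted p = 0.00411). KO 2-cell embryos held 38.2, 40.4 and 63.6 FPKM and overlapped with WT. At MII Eif4e3 was thus higher per length than Eif4e in every WT library, and in 2-cell embryos Eif4e was higher in every library of both genotypes. Eif4e3 overlaps Gm20696 on the same strand.

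The inhibitors sequester eIF4E and keep it from eIF4G, and 1 of them rose at the 2-cell stage. Eif4ebp1 stood at 0.787, 0.998 and 0.822 FPKM in WT zygotes and rose to 45.3, 27.9 and 28.1 FPKM in WT 2-cell embryos (log2 difference 4.18, SE 0.27, adjusted p = 6.19e-06). The KO 2-cell libraries held 6.86, 9.77 and 5.68 FPKM, 22.01% of the WT mean and all below WT (log2 difference -2.04, SE 0.28, adjusted p = 0.000718). Eif4ebp2 stood at 1.15, 1.03 and 1.25 FPKM in WT and 0.768, 0.366 and 0.624 FPKM in KO 2-cell embryos and was not called (log2 difference -0.44, adjusted p = 0.109), although its groups did not overlap. Eif4ebp3 was listed at 0, 1.11 and 3.34 FPKM in WT 2-cell embryos and at 0 in all other libraries, and it was not tested.

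The eIF4G scaffolds tie the cap complex to the ribosome. Eif4g1 encodes the main scaffold and was the lowest of these 3 genes in WT GV oocytes, at 0.888, 1.05 and 1.12 FPKM, and stood at 3.66, 3.398 and 2.21 FPKM in WT 2-cell embryos and 0.99, 0.994 and 0.924 FPKM in KO, with no overlap (log2 difference -1.03, adjusted p = 0.00568, and adjusted p = 0.0532 with the length trend removed). Eif4g2 encodes a scaffold that lacks the eIF4E-binding part. It rose from 10.1, 9.44 and 10.9 FPKM at GV to 25.2, 26.3 and 22.8 FPKM at MII in WT (log2 difference 1.21, adjusted p = 7.81e-06), and stood at 41.4, 47.7 and 40.7 FPKM in WT and 24.3, 25.3 and 26.1 FPKM in KO 2-cell embryos (log2 difference -0.75, adjusted p = 0.00786, and adjusted p = 0.134 with the length trend removed). Eif4g3 stood at 1.62, 1.71 and 1.01 FPKM in WT and 1.04, 0.615 and 0.609 FPKM in KO 2-cell embryos, overlapped and was not called. In zygotes all KO libraries lay above all WT libraries for each of the 3 scaffold genes, as for 16.1% of all genes, but none of these differences was called (adjusted p = 0.0908, 0.416 and 0.105).

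The helicase eIF4A unwinds the mRNA leader. Eif4a2 rose from 3.51, 4.58 and 4.99 FPKM at GV to 12.4, 11.98 and 11.1 FPKM at MII in WT (log2 difference 1.27, adjusted p = 3.15e-05) and in 2-cell embryos stood at 6.48, 5.92 and 7.53 FPKM in WT and 2.902, 3.09 and 3.51 FPKM in KO, with no overlap (log2 difference -0.87, adjusted p = 0.00851, and adjusted p = 0.218 with the length trend removed). Eif4a2 overlaps Rfc4 on the other strand. Eif4a3, a helicase of the exon junction complex, averaged 81.1 FPKM in WT and 27.3 FPKM in KO 2-cell embryos (log2 difference -1.51, adjusted p = 0.00167). Eif4h, a cofactor of the helicase, averaged 2.77 FPKM in WT and 0.562 FPKM in KO and was called lower. The cofactor gene Eif4b averaged 10.96 FPKM and 6.64 FPKM and was not called. Eif4b passed without WT replicate 3 (adjusted p = 0.0138).

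Eif4a1, the main helicase gene, stood at 6.69, 6.59 and 5.41 FPKM in WT and 5.15, 4.57 and 7.31 FPKM in KO 2-cell embryos and was not called (log2 difference -0.13, adjusted p = 0.662). Its level is uncertain, since the processed pseudogene Eif4a-ps4 differs from its coding sequence at 1 of 1218 bases and was listed at 114, 108 and 92.8 FPKM in WT 2-cell embryos. The 61 bases around the single differing base, which is in capitals, show why reads can hardly be assigned.
Eif4a1: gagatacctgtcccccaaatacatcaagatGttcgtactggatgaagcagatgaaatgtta
Eif4a-ps4: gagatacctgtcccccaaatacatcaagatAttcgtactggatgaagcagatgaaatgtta
The sum of Eif4a1 and Eif4a-ps4 was 121, 114 and 98.3 FPKM in WT and 87.5, 91.4 and 136 FPKM in KO 2-cell embryos, and these groups overlapped.

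The last steps are GTP hydrolysis by eIF2 with eIF5, and joining of the large subunit with eIF5B, while eIF6 keeps free large subunits apart. Eif5b had the largest difference of this group in 2-cell embryos. It stood at 29.5, 28.04 and 23.3 FPKM in WT and 6.86, 6.63 and 7.28 FPKM in KO, with no overlap (log2 difference -1.81, SE 0.20, adjusted p = 0.000357). In zygotes Eif5b had stood at 21.7, 34.9 and 41.8 FPKM in WT and 43.6, 40.95 and 47.5 FPKM in KO, and the change from PN5 differed (interaction -2.27, adjusted p = 0.000281). Eif5b overlaps Rev1 on the other strand. Eif6 fell from 92.2, 104 and 84.3 FPKM at GV to 7.43, 6.76 and 7.29 FPKM at MII in WT and rose to 11.7, 24.2 and 21.5 FPKM at PN5 (log2 difference 1.24, adjusted p = 0.027). In 2-cell embryos it averaged 91.5 FPKM in WT and 44.6 FPKM in KO (log2 difference -0.99, adjusted p = 0.00716, and adjusted p = 0.077 with the length trend removed). Eif5 averaged 39.9 FPKM and 28.7 FPKM and was not called (log2 difference -0.46, adjusted p = 0.0767), although its groups did not overlap.

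eIF5A acts mainly in elongation, and its 2 genes parted at the 2-cell stage. Eif5a stood at 64.6, 72.9 and 71 FPKM in WT GV oocytes and rose to 132, 167 and 189.8 FPKM at MII (log2 difference 1.20, adjusted p = 5.26e-05). It stood at 161, 213 and 109 FPKM in WT and 204, 176 and 201 FPKM in KO 2-cell embryos, which overlapped (log2 difference 0.31, adjusted p = 0.321). Eif5a2 rose in WT from 0.356, 0.0649 and 0.112 FPKM at PN5 to 18.2, 10.6 and 16.8 FPKM in 2-cell embryos (log2 difference 3.76, adjusted p = 1.12e-05). In KO 2-cell embryos the values were 4.67, 4.83 and 3.85 FPKM, all below WT (log2 difference -1.54, SE 0.25, adjusted p = 0.00152). A pseudogene, Eif5al3-ps, is 97.2% identical to Eif5a over 434 bases and averaged 16.6 FPKM in WT and 27.1 FPKM in KO 2-cell embryos.

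Whether the course from stage to stage differed between genotypes was tested by interaction. From GV to MII, 0 of 46 tested members were called with limma, against 0.12% of all genes. There 0 had an unadjusted p under 0.05, against 6.64% of all genes. From MII to PN5, 5 of 44 were called, all with a lower change in KO, against 7.45% of all genes, 4.59% lower and 2.86% higher. These were Eif1b (-1.33, SE 0.27), Eif1 (-1.24, SE 0.23), Eif3k, Eif2s2 and Eif2s1. The count fell to 0 without any 1 of 9 of the 12 libraries, and to 1 without WT PN5 replicate 1. It rose to 13 without KO MII replicate 1, where 26.5% of all genes were called, and to 19 without WT PN5 replicate 3, where 41.4% were. From PN5 to 2-cell, 33 of 51 were called, 30 with a lower and 3 with a higher change in KO, against 45.8% of all genes, 31.9% lower and 13.8% higher. The 3 were Eif1b, Eif1 (1.56, adjusted p = 0.00048) and Eif2b1. With the length trend removed the split was 20 lower and 7 higher. Among the 30, Eif3j2 (-5.83, SE 2.00), Eif3l (-3.59) and Eif3g (-2.40) had large differences, and the call for Eif3j2 ended without any 1 of 8 libraries. In KO zygotes Eif3l stood at 2.104, 1.97 and 1.48 FPKM, Eif3g at 1.45, 1.29 and 1.54, Eif3c at 5.57, 7.79 and 8.04 and Eif3a at 5.95, 5.73 and 6.21 FPKM.

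The members that fell at maturation in WT were compared with those lower in KO 2-cell embryos, since these comparisons share no sample. Of the 29 that fell from GV to MII, 22 rose from PN5 to 2-cell in WT, against 48% of all genes tested at that step. That share was not counted among all genes that fell at maturation. Of the 29, 23 were lower and 1 (Eif1b) higher in KO 2-cell embryos. Over all 9977 genes tested in both comparisons, 41.6% of those that fell from GV to MII were lower in KO 2-cell embryos and 17% higher, with a median of -0.44. Of the 15 that rose at maturation, 6 were lower and 2 (Eif2b1 and Eif2ak4) higher in KO 2-cell embryos, against 27.8% lower and 17.3% higher among all genes that rose, with a median of -0.16. The 23 made up 79.3% of the 29 and 69.7% of the 33 members lower in KO 2-cell embryos, beside a share of 63% that fell at maturation among the 46 members tested in both, of which 30 were lower in KO. The median log2 difference between KO and WT 2-cell embryos was -1.52 over the 29 and -0.13 over the 15. WT 2-cell libraries enter both the change from PN5 and the comparison with KO, so those 2 were not set against each other.

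**Figure D5:**
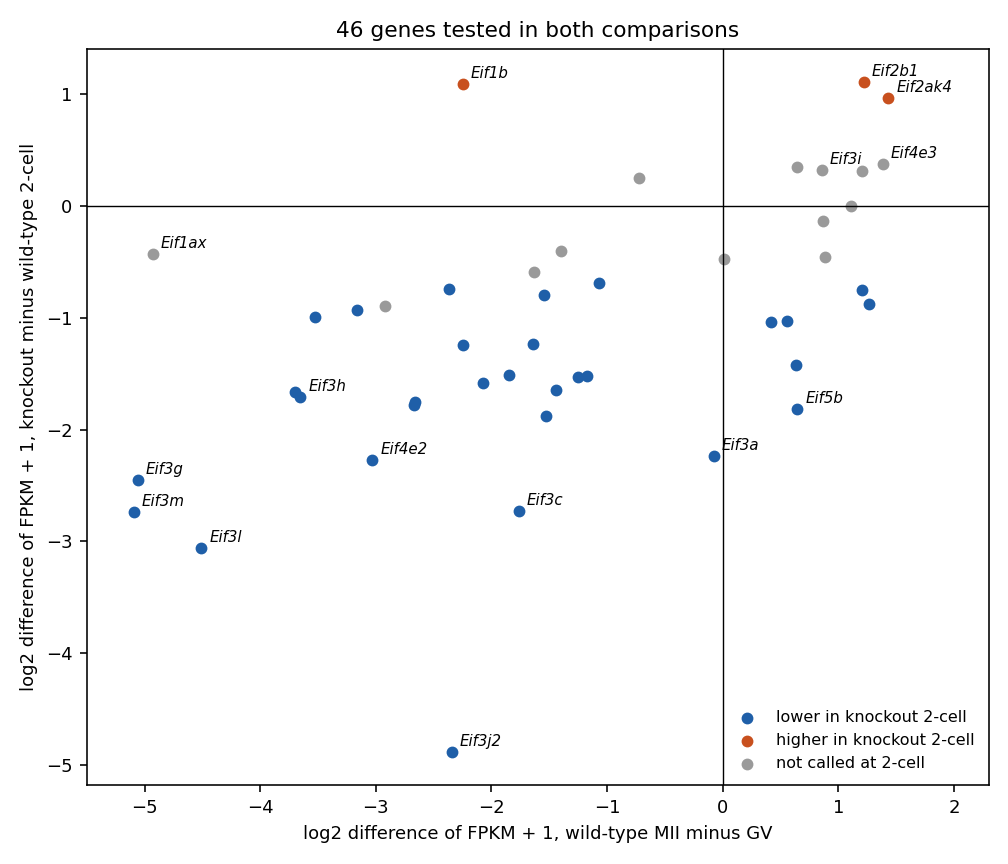
For the 46 members tested in both comparisons, the log2 difference of FPKM + 1 between WT MII and GV oocytes (horizontal) and between KO and WT 2-cell embryos (vertical), coloured by the call at the 2-cell stage. Points at the lower left, such as Eif3m, Eif3g and Eif3l, fell at maturation and were lower in KO 2-cell embryos, and Eif2b1 and Eif2ak4 at the upper right rose and were higher.

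The promoters of members that moved at the 2-cell stage were examined for short motifs. RefSeq (GRCm38.p6) gave the 250 bases before the gene start for 42 of the 53 members. The letters CCGGAAG, the core of binding sites of ETS family factors, searched on both strands, were found in 10 of the 42 (23.8%), against 7.05% of 27025 promoters of the same length. Among members lower in KO 2-cell embryos 6 of 26 held them and among the others 4 of 16. The E-box letters CACGTG were in 16.7% of member promoters against 6.05% of all, CCAAT in 26.2% against 34.5%, and TATAAA in 9.52% against 12.97%. Member promoters held a median of 18.5 CG dinucleotides per 250 bases, against 6 over all promoters. A match is a description of letters and not a binding site.

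The bases from 250 to 26 before the RefSeq start are shown for 8 members. They are the 6 that stood lowest relative to WT in KO 2-cell embryos, leaving out Eif3j2, and Eif2b1 and Eif2ak4, which were higher. Of the 6 lower ones, Eif3l, Eif3m, Eif3c and Eif3g hold the ETS letters, and Eif3a and Eif4e2 hold none of the motifs searched. Eif2b1 and Eif2ak4 hold none either. Over all matched members, as given above, the ETS letters were in 6 of 26 lower in KO and 4 of 16 others. Capitals mark matches to any motif searched, which here are the ETS letters on either strand (CCGGAAG or CTTCCGG) and, in Eif3l, CCAAT. The stretches lie at chr15:79074973-79075197, + strand for Eif3l, chr2:105017053-105017277, - strand for Eif3m, chr7:126566392-126566616, - strand for Eif3c, chr9:20898616-20898840, - strand for Eif3g, chr19:60790719-60790943, - strand for Eif3a, chr1:87213661-87213885, + strand for Eif4e2, chr5:124579157-124579381, - strand for Eif2b1 and chr2:118388367-118388591, + strand for Eif2ak4. The ETS letters start 35 bases before the RefSeq start in Eif3l, 55 in Eif3m, 68 and 34 in Eif3c, and 44 in Eif3g. In the 4 genes with ETS letters the GENCODE start lies upstream of the RefSeq start, inside the 250 bases.
Eif3l: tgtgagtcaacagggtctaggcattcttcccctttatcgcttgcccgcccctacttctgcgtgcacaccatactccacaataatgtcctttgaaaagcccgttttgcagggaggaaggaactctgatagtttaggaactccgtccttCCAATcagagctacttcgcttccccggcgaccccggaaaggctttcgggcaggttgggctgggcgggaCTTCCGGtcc
Eif3m: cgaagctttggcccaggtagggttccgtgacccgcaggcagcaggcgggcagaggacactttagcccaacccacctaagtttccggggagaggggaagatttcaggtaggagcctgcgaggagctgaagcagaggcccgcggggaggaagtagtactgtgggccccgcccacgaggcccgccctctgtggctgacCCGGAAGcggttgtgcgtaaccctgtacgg
Eif3c: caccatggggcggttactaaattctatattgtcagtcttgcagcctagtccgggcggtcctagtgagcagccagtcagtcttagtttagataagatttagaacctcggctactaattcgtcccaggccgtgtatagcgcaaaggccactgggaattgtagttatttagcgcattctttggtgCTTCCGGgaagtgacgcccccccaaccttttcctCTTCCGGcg
Eif3g: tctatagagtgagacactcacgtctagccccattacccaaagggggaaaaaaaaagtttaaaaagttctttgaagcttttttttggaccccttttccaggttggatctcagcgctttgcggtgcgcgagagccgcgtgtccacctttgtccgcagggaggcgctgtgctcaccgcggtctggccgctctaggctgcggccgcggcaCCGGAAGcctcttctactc
Eif3a: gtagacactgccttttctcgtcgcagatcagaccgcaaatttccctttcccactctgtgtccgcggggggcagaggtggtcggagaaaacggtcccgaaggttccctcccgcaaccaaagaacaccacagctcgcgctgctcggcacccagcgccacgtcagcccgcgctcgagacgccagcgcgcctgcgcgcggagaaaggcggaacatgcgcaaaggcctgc
Eif4e2: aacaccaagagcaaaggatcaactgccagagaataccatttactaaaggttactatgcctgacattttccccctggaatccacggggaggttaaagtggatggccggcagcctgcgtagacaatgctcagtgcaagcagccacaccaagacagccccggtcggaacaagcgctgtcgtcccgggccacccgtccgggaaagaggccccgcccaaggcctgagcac
Eif2b1: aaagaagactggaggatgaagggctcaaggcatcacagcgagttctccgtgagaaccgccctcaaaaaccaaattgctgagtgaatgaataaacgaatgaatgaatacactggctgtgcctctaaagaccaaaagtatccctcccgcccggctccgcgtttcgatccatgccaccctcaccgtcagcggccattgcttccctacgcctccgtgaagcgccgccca
Eif2ak4: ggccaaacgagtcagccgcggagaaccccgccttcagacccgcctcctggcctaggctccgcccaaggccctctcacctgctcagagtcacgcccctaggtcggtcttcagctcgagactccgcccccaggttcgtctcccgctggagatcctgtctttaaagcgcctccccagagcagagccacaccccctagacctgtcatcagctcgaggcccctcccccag

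A list of 44 other translation genes, such as elongation and release factors, poly(A)-binding proteins and kinases that act on initiation, was measured beside the initiation factors. In KO 2-cell embryos 21 of 42 tested were lower and 4 higher, against 40.3% and 14% of all genes, with a median log2 difference of -0.77, between that of all genes and that of the initiation factors. The lower ones included Mcts1, a reinitiation factor (log2 difference -2.31, adjusted p = 0.000721), Abce1, a ribosome recycling factor (log2 difference -2.23, adjusted p = 0.000301), Dohh, which completes the hypusine of eIF5A (log2 difference -2.13, adjusted p = 0.00117), and Pabpc1, the cytoplasmic poly(A)-binding protein (log2 difference -2.06, adjusted p = 0.00039). The 4 higher ones were Eef2k, the kinase that inhibits eEF2 (log2 difference 1.54, adjusted p = 0.00791), Pabpc1l, the poly(A)-binding protein of oocytes (log2 difference 1.28, adjusted p = 0.00465), Paip1 (log2 difference 0.82, adjusted p = 0.0174) and Tsc2, an inhibitor of mTOR signalling (log2 difference 0.69, adjusted p = 0.0187). At PN5, 1 of 31 passed, against 6.1% of all genes. This was Eef1e1, which was lower in KO (log2 difference -1.50, adjusted p = 0.0354). None of 38 passed at GV and none of 29 at MII with limma, against 0.043% and 2.28% of all genes. There 3 and 10 had an unadjusted p under 0.05, against 11.8% and 29.1% of all genes.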

How the data were processed

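RNA from 24 libraries of mouse oocytes and embryos was, per the labels' protocols, turned into cDNA by the SMART-Seq HT kit. The authors deposited FPKM per gene for each library, and the submitters' processing notes name StringTie and GRCm38. For the aligner, the annotation and the strand setting, the entry is: not given in the sources used here. Gene identifiers were matched to GENCODE M21 (55227 of 55487). The 53 members, the gene lists and the tests were chosen with earlier results of these data known.

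Groups came from the labels, 3 libraries each. FPKM + 1 was log2 transformed, genes reaching 1 FPKM in 3 or more libraries of the comparison were kept, and limma 3.58.1 (R 4.3.3, trend and robust settings) compared KO with WT at each stage, successive stages in WT, and genotype by stage. P-values were adjusted over all tested genes by Benjamini-Hochberg. Alternatives were a pseudocount of 0.1, no filter, a mean of at least 5 FPKM, median-of-ratios scaling, TPM, removal of the length trend, all 24 libraries in 1 fit, a replicate block, and single libraries left out. A count without members that have near-identical copies was added after seeing the data. The limma code was tested on simulated data. Members were named by rule: up to 8 called per direction between KO and WT, up to 6 per direction in WT changes and interactions, sets of paralogues, and up to 4 called genes per direction of the other translation list. Further members were named after their values were seen. Coding sequences were aligned with Biopython 1.88, and copies whose symbol does not start with Eif were not searched. Depth was recovered from the steps of the FPKM values.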

Additional observations from a re-analysis of the deposited data

Results flagged for a closer look

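The change from one stage to the next differed between KO and WT, by limma's interaction test, in 5 members from MII to PN5 and in 33 members from PN5 to the 2-cell stage. Of all genes 7.45% and 45.8% were called at these steps, and the 5 fell to 0 without any 1 of 9 of the 12 libraries. From MII to PN5 the difference of the 2 changes, KO minus WT on the log2 scale of FPKM + 1, was -1.33 for Eif1b, -1.24 for Eif1, -1.12 for Eif3k, -1.08 for Eif2s2 and -0.87 for Eif2s1. These 5 values share the PN5 libraries, whose WT members differed among themselves in length slope. From PN5 to the 2-cell stage it was 2.12 for Eif1b, 1.56 for Eif1 and 1.01 for Eif2b1, which was not called as TPM. Among the members with a lower change in KO it was -5.83 for Eif3j2, -3.59 for Eif3l, -3.13 for Eif3c, -2.85 for Eif3a, -2.40 for Eif3g and -2.27 for Eif5b. Both steps use the PN5 libraries with opposite sign, so the values of Eif1 and Eif1b at the 2 steps are not independent of each other.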

How the results depend on the processing

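At the 2-cell stage, from GV to MII, from PN5 to 2-cell and in the last interaction, the counts of called members stayed within 1.5 times the value given in the report under every alternative run. The PN5 count of 4 was not stable. It was 1 with a pseudocount of 0.1, 7 among genes averaging 5 FPKM or more, 10 with all 24 libraries in 1 fit, and 0 with no filter, median-of-ratios scaling, TPM or the length trend removed. Leaving out single libraries gave 0 to 15 there, 0 to 2 at GV, 0 to 9 at MII, 3 to 15 from MII to PN5 in WT and 0 to 19 for the interaction from MII to PN5. The WT count of 7 from MII to PN5 was 3 with no filter, 3 as TPM and 14 with all 24 libraries. The interaction count of 5 was 2 with a pseudocount of 0.1, 0 with no filter, 8 among genes averaging 5 FPKM or more, 0 as TPM and 1 with the length trend removed. Eif1 from PN5 to 2-cell in WT changed sign with the length trend removed, to -0.83. The cause was not tested.

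Replicate numbers did not pair the samples. The deviations of same-numbered WT and KO libraries from their own group means correlated between -0.207 and 0.214. With the replicate number as a block, 36 members were called in 2-cell embryos and 0 at each of GV, MII and PN5. Of the 36, 35 were shared with the fit without it. Low members such as Eif2ak2 and Eif4ebp3 could not be tested at this depth.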

Other observations

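The 44 other translation genes also changed between stages. From GV to MII in WT, 24 of 35 tested fell and 9 rose, against 52.8% and 31.1% of all genes. The largest falls were those of Paip2, an inhibitor of poly(A)-binding protein (log2 difference -4.86, adjusted p = 2e-07), Eef1a1 (log2 difference -3.80, adjusted p = 2.26e-08) and Eef1d (log2 difference -3.68, adjusted p = 4.44e-08) of the elongation machinery, and Pabpc1l (log2 difference -2.67, adjusted p = 4.85e-07). The largest rises were those of Paip1 (log2 difference 1.38, adjusted p = 1.31e-06), Ppp1r15a, which directs dephosphorylation of eIF2 alpha (log2 difference 1.20, adjusted p = 0.000905), the helicase gene Ddx3x (log2 difference 1.18, adjusted p = 9.8e-07) and Rheb, an activator of mTOR (log2 difference 0.94, adjusted p = 3.84e-06). From MII to PN5, 3 of 31 rose (Eef1d, Paip2b and Eef1a1) and 3 fell (Mknk1, Ppp1r15a and Ppp1r15b). Of all genes 9.8% rose and 4.44% fell at this step.

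From PN5 to the 2-cell stage in WT, 25 of 42 rose and 4 fell, against 48% and 14.8% of all genes. Pabpc1 (log2 difference 3.74, adjusted p = 3.74e-06), Denr (log2 difference 3.55, adjusted p = 5.11e-06), the release factor gene Etf1 (log2 difference 3.33, adjusted p = 0.000105) and Mcts1 (log2 difference 2.78, adjusted p = 0.000508) rose the most. The 4 that fell were Paip1, Rheb, Pabpc1l and Gspt2. The change differed between genotypes in 25 of 42, against 45.8% of all genes (31.9% lower and 13.8% higher). The change was lower in KO for 21, among them Abcf1 (log2 difference -2.90, adjusted p = 0.000373), Ppp1r15a (log2 difference -2.42, adjusted p = 0.0163), Abce1 and Eef2. It was higher for Eef1e1, Paip1, Tsc2 and Paip2. From MII to PN5 the change differed in 5 of 32, against 7.45% of all genes, higher for Eefsec, Ppp1r15a, Eef2k and Mtor and lower for Eef1e1. From GV to MII it differed in 0 of 38 with limma, against 0.12% of all genes. There 3 had an unadjusted p under 0.05, against 6.64% of all genes. PN5 libraries enter both neighbouring steps, so these values are not independent.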
